A study of Mus musculus with 12 samples.

Results

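The genes described here encode 8 proteins that skeletal muscle secretes or releases, often called myokines. They are Mstn, Fst, Igf1, Vegfa, Gdf15, Fgf21, Il15 and Fndc5, and were chosen by name. Each matched 1 of the 55573 gene identifiers in the count table through the GENCODE vM21 annotation of the mouse genome build GRCm38. RNA was sequenced from the extensor digitorum longus (EDL), a fast hindlimb muscle, of C57BL/6 mice that carried no named allele and received no named treatment. There were 3 libraries of single EDL myofibers, 3 of 5 pooled myofibers, 3 of 20 pooled myofibers and 3 of whole EDL muscle. A myofiber is a long, multinucleate muscle cell, and whole muscle holds fibers together with blood vessels, connective tissue, nerve and immune cells. Per the labels, lysis buffer was added directly to single fibers while whole muscle RNA was taken with Trizol, so that isolation and RNA extraction cannot be told apart in that comparison. The labels give no separate RNA method for the pools, no age, and no statement that replicates came from separate animals, so p-values reflect only how far these libraries spread, which may be technical.

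Muscle growth and blood supply are governed in part by factors that fibers release. Myostatin (Mstn) is a TGF-beta family ligand that limits muscle mass through activin receptors and Smad proteins, and follistatin (Fst) binds and blocks it. IGF-1 (Igf1) acts through its receptor and insulin receptor substrates to promote protein synthesis, and VEGF-A (Vegfa) maintains the capillary bed. GDF15 and FGF21 are hormones that stressed cells release, IL-15 is a cytokine that sustains natural killer and memory T cells, and Fndc5 encodes the membrane precursor of irisin.

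On GRCm38, Mstn (ENSMUSG00000026100) lay at chr1:53061640-53068079 on the plus strand. Fst (ENSMUSG00000021765) lay at chr13:114452290-114458951 on the minus strand. It was the one member sharing exon bases with another annotated gene, 115 bases or 2.51% of its exons, with the antisense gene Gm47040. Igf1 (ENSMUSG00000020053) lay at chr10:87858265-87937042 on the plus strand. Vegfa (ENSMUSG00000023951) lay at chr17:46016993-46032369 on the minus strand. Gdf15 (ENSMUSG00000038508) lay at chr8:70629393-70632456 on the minus strand. Fgf21 (ENSMUSG00000030827) lay at chr7:45613886-45615490 on the minus strand. Il15 (ENSMUSG00000031712) lay at chr8:82331632-82403222 on the minus strand, and Fndc5 (ENSMUSG00000001334) at chr4:129136999-129144593 on the plus strand. All are protein-coding genes, and reads were counted over their exons as a whole.

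Promoter sequence was found for 6 of the 8 genes in the RefSeq table for GRCm38.p6, which held no entry for Fst or Il15. The 250 bases before the first start site are shown for Mstn and Vegfa, whose levels lay on opposite sides of whole muscle, and for Fgf21, which had reads in all 6 pools and in 0 of 3 single fibers. They are written 5′ to 3′ on the gene's strand. Capitals mark matches to a TATA box (TATAAA), a cyclic AMP response element (TGACGTCA), an AP-1 site (TGANTCA), an amino acid response element (TGATGNAAN) or the hypoxia core (ACGTG), on either strand.
Mstn: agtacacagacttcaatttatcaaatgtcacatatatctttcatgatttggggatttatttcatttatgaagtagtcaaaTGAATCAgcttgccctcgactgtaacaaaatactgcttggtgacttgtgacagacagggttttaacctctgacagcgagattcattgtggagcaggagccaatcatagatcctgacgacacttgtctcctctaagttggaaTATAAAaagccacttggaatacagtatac
Vegfa: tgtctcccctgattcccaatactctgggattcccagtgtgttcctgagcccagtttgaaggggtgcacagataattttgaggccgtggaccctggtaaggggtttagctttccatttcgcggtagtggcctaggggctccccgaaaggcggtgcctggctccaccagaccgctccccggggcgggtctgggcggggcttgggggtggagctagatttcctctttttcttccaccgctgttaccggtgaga
Fgf21: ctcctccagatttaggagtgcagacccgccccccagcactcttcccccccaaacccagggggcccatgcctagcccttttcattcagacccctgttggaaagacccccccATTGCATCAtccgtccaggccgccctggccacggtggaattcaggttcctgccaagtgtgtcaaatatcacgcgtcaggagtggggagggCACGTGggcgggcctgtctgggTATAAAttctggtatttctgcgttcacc
The Mstn window, chr1:53061390-53061639, had a TATA box 29 bases before the start and an AP-1 match 170 bases before it, with 38.4% G and C. It also held the short form of the cyclic AMP element (TGACG), 4 E-boxes (CANNTG) and a Smad match (CAGACA), which are not capitalized. The Vegfa window printed, chr17:46032378-46032627, had 59.2% G and C. It held none of the 5 capitalized motifs, nor the short cyclic AMP form, an E-box or a Smad match. A second Vegfa start site in the table, 46025163, lay inside the gene, with 218 of its 250 upstream bases exonic. That window, which is not printed, held a hypoxia core, the short cyclic AMP form, 2 E-boxes and a Smad match. The Fgf21 window, chr7:45615491-45615740, had a TATA box 28 bases before the start. It also held a minus-strand amino acid response element 140 bases before the start, and the hypoxia core on both strands within an E-box 50 bases before it. The short cyclic AMP form, another E-box and a Smad match were there too. Over the 250-base windows of all 32851 promoters in the table, 12.4% held the TATA box, 6.75% the AP-1 match, 3.44% the amino acid response element and 16.6% the hypoxia core. The cyclic AMP element was in 1.55%, its short form in 17.8%, the E-box in 66.2% and the Smad match in 17.1%. The median promoter had 52.4% G and C. A match describes the letters only.

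The libraries held 4702823 to 27787120 counted reads. Levels are given as CPM, counts relative to library size, scaled between libraries by trimmed-mean (TMM) factors, which ranged from 0.522 to 2.95. Libraries also differed in how many genes foreign to muscle they had reads on. Of 1504 olfactory, vomeronasal and taste receptor genes, 4.85% to 26.7% had a read in single fibers, 4.59% to 68.8% in pools of 5, 78.7% to 97.3% in pools of 20 and 2.33% to 4.85% in whole muscle. The share was over 50% in 5 libraries, namely 5-fiber pools 1 and 2 and the pools of 20. A member is called above background in a library where its CPM per kilobase of exon exceeded the 99th percentile of these receptor genes there. Markers of fibers themselves, 8 genes including Acta1 and Ckm, summed to 15641 to 308234 CPM in isolated fibers and 75993 to 100893 CPM in whole muscle, so both kinds of library carried the labelled cell type. In bulk RNA, fewer cells of a type and less RNA per cell cannot be told apart.

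On the scale of CPM per kilobase, which allows levels of different genes to be set side by side, Vegfa led the members in every fiber group. Its mean was 54.0 in single fibers, 96.2 in pools of 5 and 61.6 in pools of 20, against 19.1 in whole muscle. Mstn had 17.2 in single fibers, 7.65 in pools of 5 and 4.17 in pools of 20, against 23.3 in whole muscle, where it came first. Fndc5 had 4.23 in single fibers, 17.4 in pools of 5 and 6.78 in pools of 20, against 11.4 in whole muscle. Vegfa lay apart from the next gene in all 3 fiber groups, with no overlap between libraries, and so did Mstn from the third in single fibers. Igf1 had 1.95 in single fibers, 1.76 in pools of 5 and 1.50 in pools of 20, against 9.64 in whole muscle. Il15 lay between 1.22 and 1.57 in the fiber groups, against 3.06 in whole muscle, and Fst between 0.475 and 0.663, against 1.82 in whole muscle. Below Mstn, neighbours in the order overlapped in single fibers, as did those below Vegfa in pools of 5. In pools of 20 only Vegfa from Fndc5 and Igf1 from Fst were apart among neighbours. In whole muscle, by contrast, only 2 neighbouring pairs overlapped, Fndc5 with Igf1 and Gdf15 with Fgf21. With the longest transcript in place of the union of exons as the length, Vegfa had 23.7 in whole muscle and overlapped with Mstn.

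**Figure D1:**
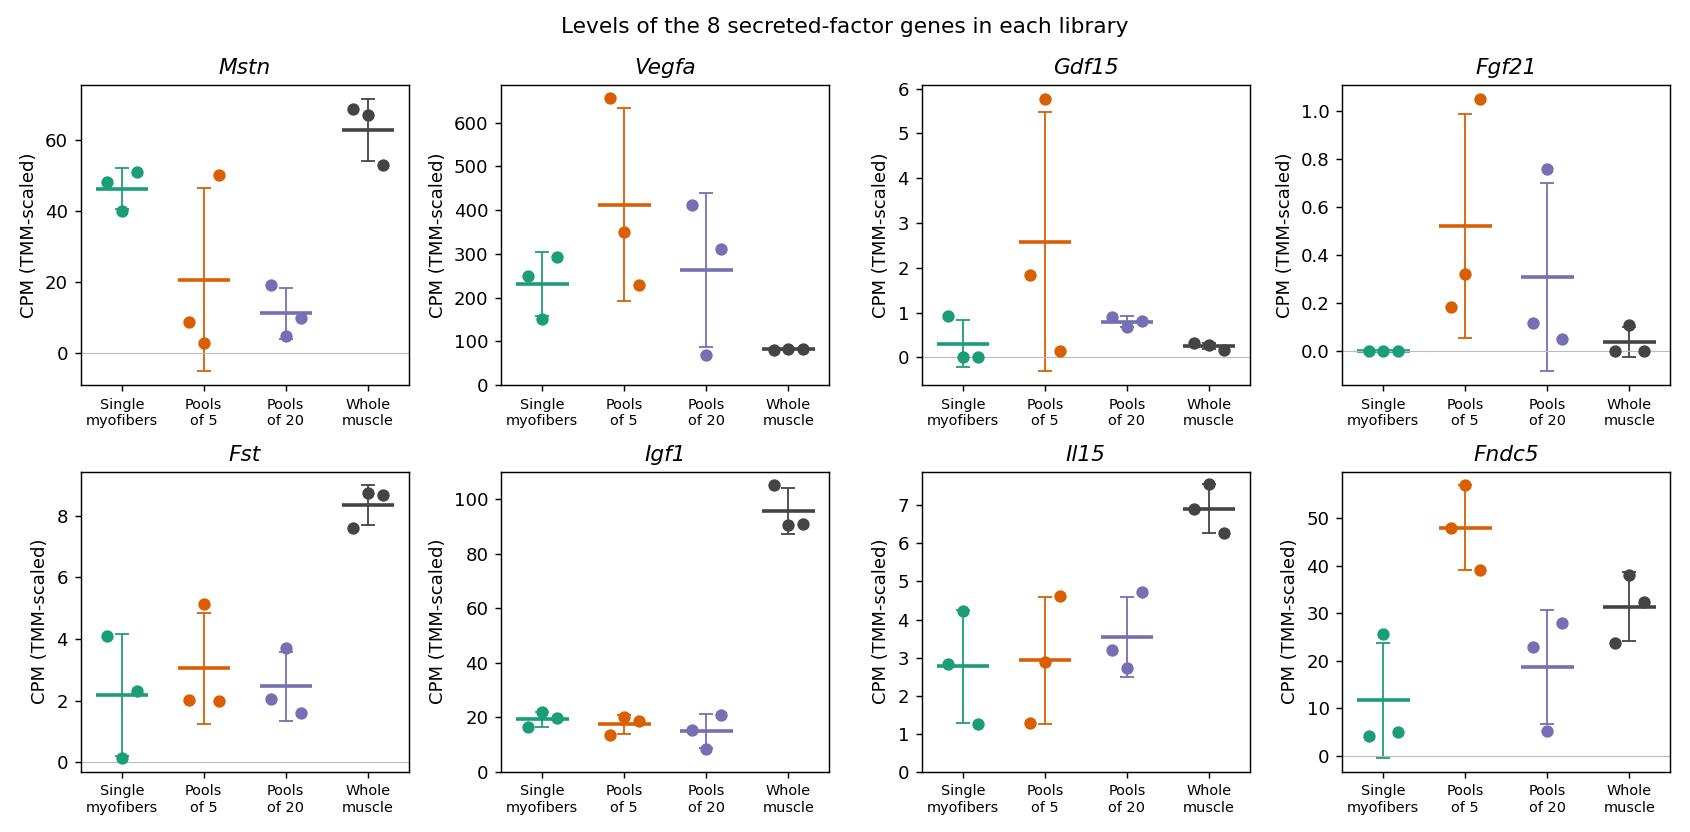
Level of each of the 8 genes in each library, in TMM-scaled CPM on linear axes, for single myofibers, pools of 5, pools of 20 and whole muscle from left to right. Points are libraries, horizontal lines are group means and error bars are the SD (n = 3). Igf1, Mstn, Fst and Il15 were lower in all 9 fiber libraries than in any whole muscle library, while Vegfa was higher in 8 of 9.

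Isolated myofibers were set against whole muscle to ask which of these factors differ between fibers taken out of the tissue and the tissue itself. Of the 8 genes 7 passed the filter on low counts and were tested, and Fgf21 did not. Vegfa was called higher and Igf1 lower (edgeR, adjusted p under 0.05), and 5 were not called. Over all 22110 genes tested 15.2% were called, 7.46% higher and 7.78% lower. The median log2 fold change was -1.17 over the 7 members and 0.40 over all genes. Mstn, Fst, Igf1 and Il15 were lower in all 9 fiber libraries than in any whole muscle library, which held for 7.72% of all genes. No tested member was higher in all 9 than in all of whole muscle, which held for 3.22%. On total-read scaling without TMM factors the same 4 genes were lower in 9 of 9, and per read on the 8 fiber genes this held for Mstn and Igf1, with Il15 lower in 8 and Fst in 7. The median of all genes moved between -0.30 and 0.69 over 5 scalings, so changes are also given relative to it. In the fits of each fiber group it moved between -1.40 and -0.12 in single fibers. The range was -1.20 to 0.13 in pools of 5 and 0.25 to 1.24 in pools of 20.

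Igf1, the growth factor, was lower in every fiber library. It had 16.4, 21.9 and 19.6 CPM in single fibers, 13.4, 20.1 and 18.7 CPM in pools of 5, and 15.4, 8.42 and 20.8 CPM in pools of 20, against 105.2, 90.6 and 90.7 CPM in whole muscle. The 9 fiber libraries spanned 8.42 to 21.9 CPM, so that the highest was under the lowest whole muscle library. Igf1 averaged 17.2 ± 4.28 CPM in isolated fibers (SD, n = 9) and 95.5 ± 8.37 CPM in whole muscle (SD, n = 3). It fell 5.59-fold, a log2 fold change of -2.48 (SE 0.34, edgeR adjusted p = 1.55e-04). Relative to the median of all genes the change lay between -2.98 and -2.88 over the 5 scalings, and the call was made in 20 of 20 alternative settings. The decrease was called in each fiber group on its own, with log2 fold changes of -2.36 in single fibers, -2.52 in pools of 5 and -2.37 in pools of 20. In pools of 5 the call was lost without any 1 of the whole muscle libraries (edgeR adjusted p = 0.0763 to 0.0864) and with scaling to fiber genes (adjusted p = 0.105). These 3 comparisons share the whole muscle libraries. Igf1 was above background in 8 of 9 fiber libraries and all 3 of whole muscle, the exception being 20-fiber pool 2, at 0.627 times the background density.

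In the comparison of all isolated fibers, markers of several other cell types of muscle were called lower, as was Igf1. All 7 fibroblast markers fell, among them Col1a1 and Lum, and their sum was 9.61 to 483 CPM in isolated fibers, against 3219 to 3625 CPM in whole muscle. All 6 endothelial markers fell, with sums of 1.23 to 481 CPM in isolated fibers and 788 to 943 CPM in whole muscle. Of 6 macrophage markers 5 fell (18.5 to 43.8 CPM summed in isolated fibers, 419 to 476 CPM in whole muscle). The 4 adipocyte markers fell (0 to 5.61 CPM against 807 to 1004 CPM), and so did the 5 pericyte and smooth muscle markers (0.714 to 385 CPM against 310 to 327 CPM). With scaling to fiber genes 6 fibroblast, 3 endothelial, 4 macrophage, 4 adipocyte and 3 pericyte markers fell. None of 4 satellite cell markers was called (2.23 to 15.1 CPM against 7.36 to 8.41 CPM), nor any of the 8 fiber markers. The adipocyte gene Cfd was at 0 in 4 fiber libraries and the macrophage gene C1qa in 5. The endothelial and pericyte sums were 1.23 to 5.84 and 0.714 to 4.81 CPM in single fibers, and reached 481 and 385 CPM in pools of 5. In pools of 5, 3 of 7 fibroblast, 0 of 6 endothelial and 1 of 5 pericyte markers were called lower, while Igf1 was. The counts were 7, 3 and 2 in pools of 20, and 7, 6 and 5 in single fibers. Of all genes, 4.22% were called lower in pools of 5, 13.5% in pools of 20 and 19.8% in single fibers. Macrophage markers called lower were 4, 5 and 4 in these 3 groups, and all 4 adipocyte markers were in each. Igf1 averaged 19.3 ± 2.78 CPM in single fibers, 17.4 ± 3.51 CPM in pools of 5 and 14.9 ± 6.21 CPM in pools of 20 (SD, n = 3 each), and the joint test did not call a difference among them (edgeR adjusted p = 0.875). The part of these cells in the results was not tested.

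Vegfa, the vessel growth factor, had the highest level per kilobase of the members in fibers. It had 249, 152 and 293 CPM in single fibers, 657, 351 and 229 CPM in pools of 5, and 411, 69.0 and 311 CPM in pools of 20, against 79.6, 82.2 and 83.1 CPM in whole muscle. With TMM factors 20-fiber pool 2 was the one fiber library under whole muscle, and the other 8 were above all 3 whole muscle libraries. Which library fell below depended on the scaling. On total reads it was single fiber 2, at 84.1 RPM (reads scaled to the total alone), while 20-fiber pool 2 was at 193.5 RPM, against 116 to 127 RPM in whole muscle. Per read on the 8 fiber genes 6 of 9 fiber libraries were above and 2 below. Its mean was 302 ± 168 CPM in isolated fibers (SD, n = 9) and 81.6 ± 1.82 CPM in whole muscle (SD, n = 3). The log2 fold change was 1.84 (SE 0.62, edgeR adjusted p = 0.0496), just past the threshold. The call was lost without any 1 of 10 libraries, kept only without 5-fiber pool 3 or 20-fiber pool 2, with adjusted p = 0.00713 to 0.220 over these 12 fits. It was made in 6 of 20 alternative settings, among them DESeq2 and the fit without the 5 libraries of high receptor background. It was lost with no filter, with total reads (1.02) and with scaling to fiber genes. Relative to the median of all genes, the increase lay between 1.26 and 1.44 over the 5 scalings. Vegfa was above background in all 12 libraries, 11.9 times the background density in 20-fiber pool 2 and at least 104.6 times in the others.

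Vegfa was also called higher in each fiber group. The log2 fold change was 1.48 in single fibers (SE 0.33, edgeR adjusted p = 0.0126), 2.27 in pools of 5 (SE 0.46, adjusted p = 0.0286) and 1.96 in pools of 20 (SE 0.67, adjusted p = 0.0259). Each of these calls was lost without any 1 whole muscle library, and it was lost in pools of 5 without pool 1 and in pools of 20 without pool 1 or 3. For pools of 5 it was lost with total reads too (1.04, adjusted p = 0.0748) and with scaling to fiber genes (2.40, adjusted p = 0.137), and in pools of 20 with no filter (adjusted p = 0.237). In single fibers the difference was 0.47 when scaled to total reads (adjusted p = 0.334) and 0.26 when scaled to the 8 fiber genes (adjusted p = 0.607; 3.73e-04 to 0.607 over 7 such alternatives), of which 5 were themselves called higher in single fibers. Set against the median of all genes, Vegfa in single fibers lay between 1.59 and 1.67 over the 5 scalings. The range was 2.24 to 2.53 in pools of 5 and 0.97 to 1.57 in pools of 20. The joint test did not call a difference in Vegfa among the 3 fiber groups (edgeR adjusted p = 0.651).

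Myostatin levels spread widely among the fiber libraries. Mstn had 48.1, 40.0 and 51.1 CPM in single fibers, 8.91, 2.89 and 50.3 CPM in pools of 5, and 19.1, 4.85 and 9.83 CPM in pools of 20, against 68.9, 67.3 and 53.0 CPM in whole muscle. With TMM factors, single fibers and 5-fiber pool 3 lay just under whole muscle, between 40.0 and 51.1 CPM. On total reads they had 22.2 to 45.2 RPM, against 75.1 to 110 RPM in whole muscle, and were not close to it. The 5 other fiber libraries had at most 19.1 CPM, or 19.7 RPM. Those 5 are the ones in which over 50% of receptor genes had a read, and without them the log2 fold change in isolated fibers was -0.56 (edgeR adjusted p = 0.165). With all libraries the log2 fold change in isolated fibers was -1.51 (SE 0.54, edgeR adjusted p = 0.0621) and was not called, and without 5-fiber pool 3 it was -2.19 (adjusted p = 3.70e-04). It was also called without single fiber 2 or 20-fiber pool 1, and the range of adjusted p over the 12 fits that leave out 1 library was 3.70e-04 to 0.166. The difference was called with no filter (adjusted p = 0.0233), DESeq2 (0.0391), total reads (-2.32, 0.00302) and scaling to the 8 fiber genes (-2.08, 0.00671). In all, 8 of 20 alternative settings called Mstn lower in isolated fibers.

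By group, with TMM factors, the filter on low counts and all libraries, Mstn was called lower in pools of 20 only. There it averaged 11.3 ± 7.25 CPM, against 63.1 ± 8.74 CPM in whole muscle (SD, n = 3 each), and fell 4.58-fold (log2 fold change -2.20, SE 0.48, edgeR adjusted p = 0.00161). This call was made in 13 of 13 settings. With scaling to fiber genes Mstn was -1.78 in pools of 20 (edgeR adjusted p = 0.0105), where the median of all genes was 1.24. Relative to that median Mstn was -3.01, beside -2.58 with TMM factors. In single fibers it averaged 46.4 ± 5.77 CPM (SD, n = 3) and the log2 fold change was -0.48 (SE 0.26, adjusted p = 0.194). With total reads it was -1.52 there (edgeR adjusted p = 0.00837) and with scaling to fiber genes -1.73 (adjusted p = 0.00794), both called. The median of all genes was -1.20 and -1.40 in these 2 fits. Relative to that median Mstn was -0.32 and -0.34, beside -0.35 with TMM factors. In pools of 5 it averaged 20.7 ± 25.8 CPM (SD, n = 3), with -1.71 (SE 0.86, adjusted p = 0.247), and without pool 3 the value was -3.32 (adjusted p = 9.44e-05, and up to 0.475 without 1 of the others). It was called in pools of 5 also with total reads (-2.88, adjusted p = 0.0402) and with no filter (adjusted p = 0.0131). The joint test of the 3 fiber groups did not call Mstn (edgeR adjusted p = 0.167). It did so in 2 of 9 fits that left out 1 library (edgeR adjusted p = 0.00233 to 0.323). Mstn was above background in all 12 libraries, from 1.32 times in 20-fiber pool 2 to 675 times in whole muscle 1.

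Follistatin, the inhibitor of myostatin, was a low-abundance transcript. Fst had 4.09, 0.130 and 2.32 CPM in single fibers, 2.02, 5.14 and 1.98 CPM in pools of 5, and 2.05, 3.72 and 1.61 CPM in pools of 20, against 7.59, 8.75 and 8.68 CPM in whole muscle. All 9 fiber libraries were under all 3 of whole muscle, yet the difference missed the threshold in isolated fibers (log2 fold change -1.73, SE 0.59, edgeR adjusted p = 0.0519). It passed without any 1 of 5 libraries, namely the single fibers and 5-fiber pools 2 and 3, and it passed with no filter (adjusted p = 0.00981) and with total reads (adjusted p = 0.0255). In pools of 20 it was called lower (-1.34, SE 0.47, adjusted p = 0.0284), but in that group Fst was at 0.504 to 0.619 times the background density, within background. With scaling to the 8 fiber genes the value there was -0.01 (edgeR adjusted p = 0.993). The median of all genes was 1.24 in that fit, and Fst was -1.25 relative to it. The call was made in 7 of 13 settings, and was lost without 20-fiber pool 3 or whole muscle 2 or 3. It was above background in 5 of 9 fiber libraries and in all 3 of whole muscle. In single fibers and pools of 5 the log2 fold changes were -1.97 (adjusted p = 0.123) and -1.52 (adjusted p = 0.102). These were called in 4 of 13 and 5 of 14 settings, total reads and no filter among them.

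Counted by group, 6 members were tested in single fibers, with Vegfa higher and Igf1 lower, where 33.6% of 14028 genes were called (13.9% higher, 19.8% lower). In pools of 5, 7 were tested, with the same 2 genes called, where 8.85% of 14764 genes were called (4.63% higher, 4.22% lower). In pools of 20, 7 were tested, with Vegfa higher and Mstn, Fst and Igf1 lower, where 43.9% of 16969 genes were called (30.3% higher, 13.5% lower). Mstn, Fst, Igf1 and Il15 were below all whole muscle libraries in each group, which held for 30.9% of genes in single fibers, 20.2% in pools of 5 and 30.2% in pools of 20. Of the tested members, wholly above whole muscle were Vegfa in single fibers (21.2% of genes), Vegfa and Fndc5 in pools of 5 (16.0%), and Gdf15 in pools of 20 (28.9%). The joint test of differences among the 3 fiber groups called 0 of 7 members by edgeR, where 0.813% of 19927 genes were called. At an unadjusted p under 0.05 that test had 6540 of 19927 genes, and DESeq2 called 5068 genes.

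**Figure D2:**
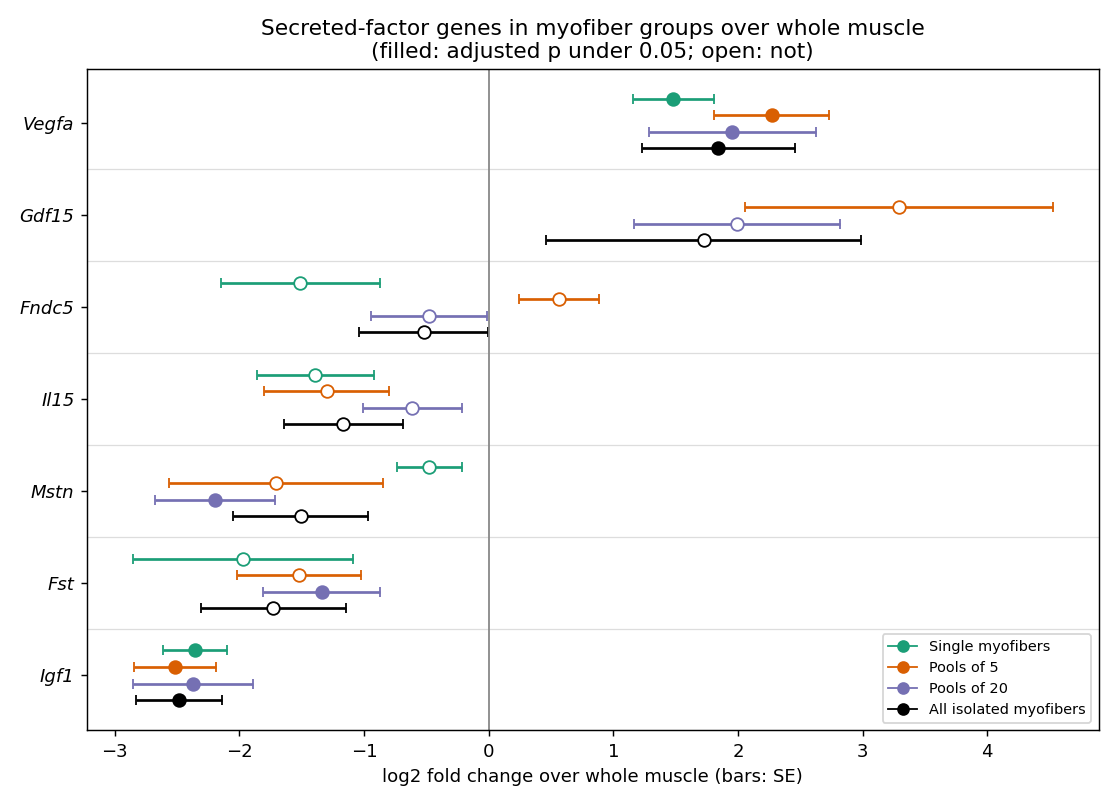
Log2 fold change of each tested member against whole muscle, in isolated fibers as a whole and in each fiber group, from edgeR with TMM factors. Bars are the SE, filled points are called at an adjusted p under 0.05, and the grey vertical line marks no change. Igf1 lay between -2.52 and -2.36 in every group, while Mstn ran from -0.48 in single fibers to -2.20 in pools of 20.

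Interleukin 15 lay under whole muscle in all fiber libraries and was not called with TMM factors, the filter and all libraries. Il15 had 2.84, 4.22 and 1.25 CPM in single fibers, 1.29, 2.89 and 4.61 CPM in pools of 5, and 3.19, 2.73 and 4.73 CPM in pools of 20, against 6.89, 7.57 and 6.28 CPM in whole muscle. Per read on the 8 fiber genes 1 of the 9 lay above whole muscle. In isolated fibers the log2 fold change was -1.17 (SE 0.48, edgeR adjusted p = 0.0908), and it was called without single fiber 2 or 5-fiber pool 3 and with total reads (-1.92, adjusted p = 0.012). In single fibers it was -1.39 (SE 0.47, adjusted p = 0.0537), in pools of 5 -1.30 (adjusted p = 0.148) and in pools of 20 -0.61 (adjusted p = 0.228). The difference in single fibers was called in 6 of 13 settings, including DESeq2 (adjusted p = 0.0111), upper-quartile factors (0.0474), total reads (-2.53, 0.00358) and scaling to fiber genes (-2.73, 0.00315). For pools of 5 it was called with total reads (-2.44, adjusted p = 0.0146) and without pool 3, and in pools of 20 with no filter (-1.30, adjusted p = 0.0443). Set against the median of all genes, Il15 in single fibers lay between -1.34 and -1.25 over the 5 scalings. It was above background in 8 of 9 fiber libraries and 3 of 3 of whole muscle.

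The irisin precursor gene had its highest mean in pools of 5 with TMM factors, but not with total reads. Fndc5 had 4.26, 25.7 and 5.08 CPM in single fibers, 48.1, 57.0 and 39.1 CPM in pools of 5, and 23.0, 5.16 and 28.0 CPM in pools of 20, against 23.8, 38.1 and 32.5 CPM in whole muscle. With these factors all pools of 5 lay above all whole muscle libraries, while single fibers 1 and 3 and 20-fiber pool 2 lay at 4.26 to 5.16 CPM. On total reads, pooled levels were 8.47 RPM in single fibers, 27.2 RPM in pools of 5 and 30.2 RPM in pools of 20. Whole muscle had 47.9 RPM. No fiber library lay above all of whole muscle on that scale, and 7 of 9 lay below all of it. The exceptions were 5-fiber pool 2 and 20-fiber pool 3, which lay within the range of whole muscle. The log2 fold change was -0.52 in isolated fibers (SE 0.52, edgeR adjusted p = 0.545), and no fiber group was called with TMM factors, the filter and all libraries. With total reads the gene was called lower in isolated fibers (-1.36, adjusted p = 0.0226). In single fibers it was -1.51 (SE 0.64, adjusted p = 0.104), and -2.75 without single fiber 2 (adjusted p = 1.11e-04, and up to 0.243 without 1 of the others). It was called there with no filter (adjusted p = 4.64e-04), total reads (-2.67, 0.00996) and scaling to fiber genes (-2.79, 0.00998). In pools of 5 it was 0.56 (SE 0.32, edgeR adjusted p = 0.301) and -0.59 with total reads as the scaling. Set against the median of all genes, Fndc5 lay between 0.59 and 0.86 in pools of 5 over the 5 scalings. It lay between -1.47 and -1.36 in single fibers and between -1.39 and -0.86 in pools of 20. The joint test among fiber groups gave an adjusted p = 0.121, 0.048 with total reads, and 0.0293 to 0.279 when a library was left out. It was past the threshold without single fiber 2 or 5-fiber pool 3. Fndc5 was above background in all 12 libraries.

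The hormone genes Gdf15 and Fgf21 had few reads anywhere. Gdf15 had 11, 0 and 0 reads in single fibers, 20, 36 and 2 reads in pools of 5, and 8, 9 and 17 reads in pools of 20, against 4, 8 and 5 reads in whole muscle. As levels this was 0.918, 0 and 0 CPM, 1.84, 5.78 and 0.132 CPM, and 0.911, 0.682 and 0.804 CPM, against 0.310, 0.286 and 0.169 CPM in whole muscle. The counts of 0 in single fibers 2 and 3 allow up to 0.195 and 0.267 CPM. The pools of 20 stood above whole muscle in CPM, yet all 3 were within background, at 0.272 to 0.682 times its density, and whole muscle was at 1.97 to 4.43 times. The log2 fold change was 1.73 in isolated fibers (SE 1.26, edgeR adjusted p = 0.373), and it was -0.12 without single fiber 1. In pools of 5 it was 3.29 (SE 1.23, adjusted p = 0.138) and for 20 fibers 1.99 (SE 0.82, adjusted p = 0.0607), and no call was made with TMM factors, the filter and all libraries. It was called in pools of 5 with DESeq2 and without pool 3, where the adjusted p was 0.02 and 0.00131, and in pools of 20 with upper-quartile factors, DESeq2 and without pool 2 (adjusted p = 0.0372 to 0.05).

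Fgf21 had 0 reads in all 3 single fibers, which allows up to 0.195 to 0.267 CPM per library. It had 2, 2 and 16 reads in pools of 5 and 1, 10 and 1 reads in pools of 20, against 0, 3 and 0 reads in whole muscle. In CPM these were 0.184, 0.321 and 1.05 in pools of 5 and 0.114, 0.758 and 0.0473 in pools of 20, against 0, 0.107 and 0 in whole muscle. The 16 reads of 5-fiber pool 3, a library with few receptor gene reads, were at 24.6 times the background density. The other pools were within background, and 1 of 3 whole muscle libraries was above it, so that Fgf21 was detected above background in 2 of 12 libraries. Fgf21 failed the filter on low counts in every comparison and was not tested. Limits of this kind reflect counting error alone.

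**Figure D3:**
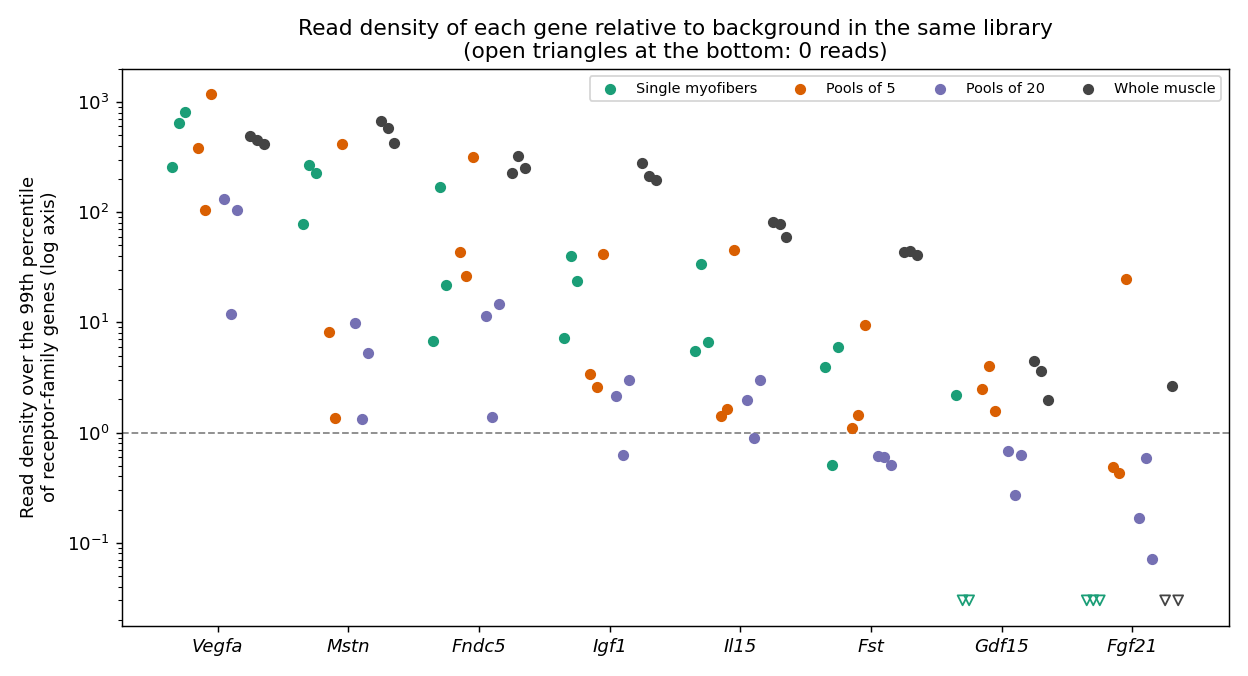
Level of each member in CPM per kilobase of exon divided by the 99th percentile of the olfactory, vomeronasal and taste receptor genes of the same library, on a log axis, with points coloured by group. The line at 1 is the background density; open triangles at the bottom are libraries with 0 reads. Mstn, Vegfa and Fndc5 were above it in all 12 libraries, Igf1 and Il15 in 11, Fst in 8, Gdf15 in 7 and Fgf21 in 2.

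Ratios of 2 members within a library do not depend on scaling. They were chosen after the levels had been seen and are given without a test. Reads on Vegfa over reads on Igf1 had a median of 15.0 in the 9 fiber libraries (6.93 to 49.0), against 0.757 to 0.916 in whole muscle, where the genes had near equal reads. The fiber libraries lay wholly above whole muscle, 20-fiber pool 2 included, at 8.20. Vegfa over Mstn was 3.79 to 5.72 in single fibers, 4.55 to 121 in pools of 5 and 14.2 to 31.7 in pools of 20, against 1.16 to 1.57 in whole muscle. Mstn over Igf1 was 1.83 to 2.94 in single fibers and 2.69 in 5-fiber pool 3, while the 5 other fiber libraries had 0.144 to 1.24, against 0.585 to 0.742 in whole muscle. A ratio shows unequal change and not which gene moved.

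**Figure D4:**
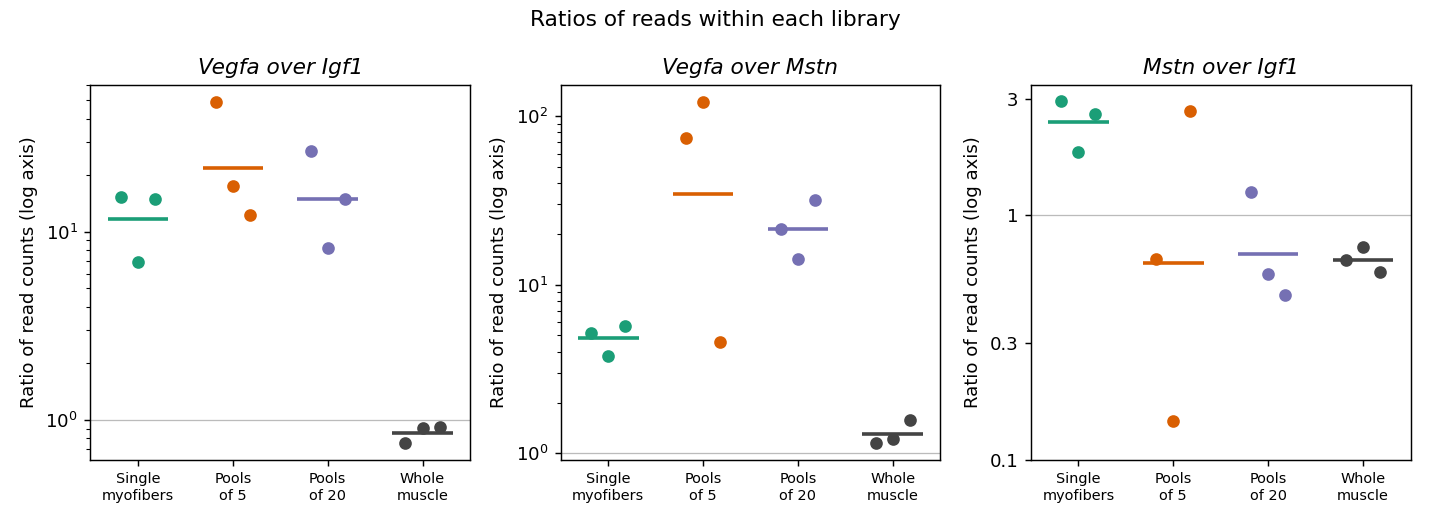
Ratios of reads between members within each library, on log axes, for single myofibers, pools of 5, pools of 20 and whole muscle from left to right. Points are libraries and horizontal lines are geometric means of the group. Vegfa over Igf1 was 6.93 or higher in every fiber library and under 1 in all 3 whole muscle libraries.

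Other genes of the members' pathways were read in the same comparison, isolated fibers against whole muscle. In the myostatin and activin list 18 of 19 genes were tested, 1 rose, 2 fell and 15 were not called, with a median log2 fold change of 0.24 beside 0.40 for all genes. Acvr1b, the type I receptor for activin, averaged 16.2 ± 6.98 CPM in isolated fibers (SD, n = 9) and 3.67 ± 0.568 CPM in whole muscle (SD, n = 3), a log2 fold change of 2.13 (edgeR adjusted p = 0.00875). Acvr2a, a type II receptor that binds activins, fell to 9.50 ± 3.87 CPM in isolated fibers, against 21.4 ± 2.70 CPM in whole muscle (log2 fold change -1.23, adjusted p = 0.0272). Bmp1, a protease that frees myostatin from its propeptide, fell to 8.95 ± 7.86 CPM in isolated fibers, against 31.5 ± 1.97 CPM in whole muscle (-2.37, adjusted p = 0.0017). The calls of Acvr1b and Acvr2a were lost without any 1 whole muscle library and with scaling to fiber genes, and that of Acvr2a also with upper-quartile factors, no filter, or without the 5 libraries of high receptor background.

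In the IGF list 13 of 15 genes were tested, 2 rose, 6 fell and 5 were not called (median -0.54). Irs2, the adaptor that carries insulin and IGF-1 receptor signals, was at 236 ± 147 CPM in isolated fibers (SD, n = 9), between 27.7 and 481 CPM, against 9.58 ± 1.07 CPM in whole muscle (SD, n = 3). Its log2 fold change was 4.44 (SE 0.70, edgeR adjusted p = 4.28e-04), and the groups did not overlap. Igf1r, the IGF-1 receptor, averaged 26.7 ± 13.7 CPM in isolated fibers and 6.92 ± 0.971 CPM in whole muscle (log2 fold change 1.92, adjusted p = 0.0201), which was not called when any 1 whole muscle library or the 5 libraries of high receptor background were left out, nor with total reads or fiber-gene scaling. The binding proteins Igfbp4 and Igfbp7 fell, Igfbp4 to 5.32 ± 6.39 CPM in isolated fibers, against 64.9 ± 4.81 CPM in whole muscle (-4.54, adjusted p = 1.78e-04). Igfbp7 fell to 12.5 ± 19.0 CPM in isolated fibers, against 173 ± 24.5 CPM in whole muscle (-7.02, adjusted p = 6.94e-05). All 3 single fibers were at 0 reads for Igfbp7, so the size of its fitted change depends on the prior count. Irs2, Igfbp4 and Igfbp7 were called in 20 of 20 alternative settings. Without the 5 libraries of high receptor background the list also had 2 higher and 6 lower, but not the same genes, since Igf1r lost its call. Without whole muscle 2 the list had 1 higher and 4 lower. It had 1 higher and 3 lower with scaling to fiber genes, and 1 higher and 8 lower with total reads.

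In the VEGF list 11 genes were tested, 0 rose and Kdr alone fell (median -0.61). Kdr, the main VEGF-A receptor of endothelium, was at 17.1 ± 21.2 CPM in isolated fibers (SD, n = 9) and 35.7 ± 2.93 CPM in whole muscle (SD, n = 3), with overlap, and its log2 fold change was -2.64 (edgeR adjusted p = 0.0106). It is also one of the endothelial markers, whose sum was lower in all 9 fiber libraries than in whole muscle. In single fibers 7 of the 11 fell and 0 rose, with a median of -2.75, where 19.8% of all genes fell and 13.9% rose. In each kind of pool 0 of 11 were called, beside 8.85% of all genes in pools of 5 and 43.9% in pools of 20. Without the 5 libraries of high receptor background 6 of the 11 fell in isolated fibers. In the list for GDF15 and FGF21, Ret, the co-receptor through which GDF15 signals, was the 1 of 11 called, lower at -2.83 (adjusted p = 0.00744; median 0.29). It averaged 2.46 ± 2.64 CPM in isolated fibers and 10.8 ± 1.14 CPM in whole muscle. In the IL-15 list Il2rg, a shared receptor chain of lymphocyte cytokines, was the 1 of 7 called, at -3.29 (adjusted p = 0.0369; median 0.27), and leaving out any 1 whole muscle library or 20-fiber pool 1 or 2 ended the call. The call was also lost with relative log expression factors, upper-quartile factors and scaling to fiber genes, and was made in 12 of 20 alternative settings. Il2rg too had 0 reads in all 3 single fibers, and its fitted size depends on the prior count. None of 5 genes listed with Fndc5 was called (median -0.35). The calls of Bmp1, Kdr and Ret were lost with scaling to fiber genes and kept in the other 19 settings.

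Of 18 other factors that muscle releases 2 rose, 7 fell and 9 were not called, with a median of -1.29. Decorin (Dcn), a matrix proteoglycan that binds myostatin and is also a fibroblast marker, averaged 57.5 ± 65.9 CPM in isolated fibers (SD, n = 9) and 778 ± 38.6 CPM in whole muscle (SD, n = 3). Its log2 fold change was -4.06 (edgeR adjusted p = 0.00263). Gdf10, a TGF-beta family ligand, fell to 0.581 ± 0.891 CPM in isolated fibers, against 5.04 ± 1.44 CPM in whole muscle (-4.16, adjusted p = 0.00847), and was within background in all 9 fiber libraries, a call lost with scaling to fiber genes. Fgf2 averaged 10.5 ± 5.32 CPM in isolated fibers and 3.29 ± 0.456 CPM in whole muscle (1.61, adjusted p = 0.0301), and Nrg1 was called higher at 5.29 (adjusted p = 0.0364) while within background in all 12 libraries. The Fgf2 call was made in 8 of 20 alternative settings and the Nrg1 call in 10 of 19. Leaving out any of 8 libraries ended the call of Fgf2, namely each whole muscle library, single fibers 1 and 3, and among pools 5-fiber 1 and 20-fiber 1 and 3. Nrg1 lost its call without single fiber 3, any pool of 20 or whole muscle 2 or 3.

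With scaling to fiber genes the lists had, apart from the IGF list, 0 genes called but for 5 that fell among the other factors. With total reads 5 genes fell in the myostatin list, 2 each in the VEGF, GDF15 and FGF21, IL-15 and Fndc5 lists, and 10 among the other factors, while Acvr1b was the 1 outside the IGF list that rose.

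**Figure D5:**
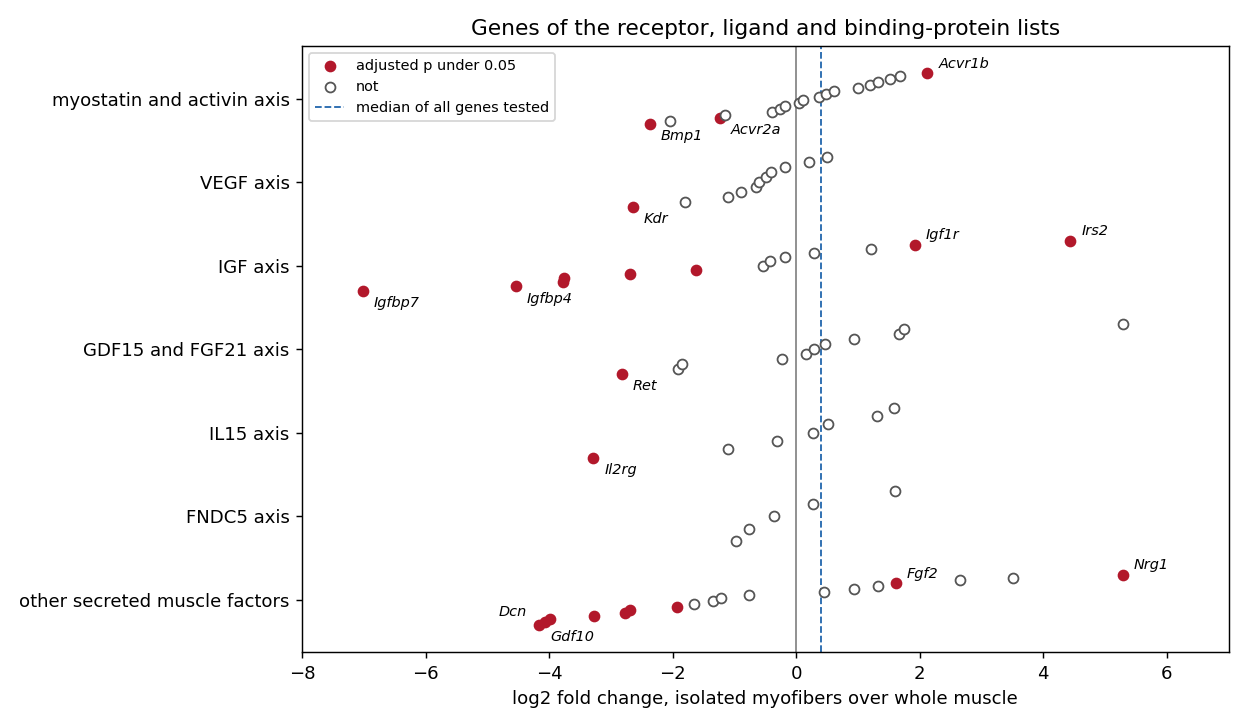
Log2 fold change of isolated myofibers against whole muscle for the tested genes of each list, 1 row per list, from edgeR with TMM factors. Each point is a gene, filled points are called at an adjusted p under 0.05, the dashed line is the median of all genes tested, and genes named in the text carry their symbols. Igfbp7 was lowest, at -7.02, and Irs2 lay at 4.44.

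Genes whose levels ran most like a member's over the 12 libraries were found by Pearson's r of log2 CPM among 6012 genes, as a description, since the points share libraries and group means. Mstn ran most like Eno1 (r = 0.975), the enolase gene, and Golga7 (r = 0.973). Vegfa ran most like Arhgef12 (r = 0.958) and Son (r = 0.955). Igf1 ran most like Nck1 (r = 0.963) and Serp1 (r = 0.955). Fndc5 ran most like Fxyd6 (r = 0.966) and Lpl (r = 0.958). Fst, Il15, Gdf15 and Fgf21 averaged under 5 CPM and were not compared.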

How the data were processed

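The deposited table holds raw counts of reads per Ensembl gene, whole numbers with no normalization. The submitters' processing notes name HISAT2, SAMtools, featureCounts and GRCm38 (mm10); versions, annotation release, strand and multi-mapping settings are not given in the sources used here. Per the labels, library preparation used SMART-Seq HT, which amplifies full-length cDNA. Of 55573 identifiers 55480 matched GENCODE vM21, the source of symbols, coordinates and exon lengths. Groups came from the labels, which name no batch. Libraries of a group were no copies of each other (chi-square per degree of freedom 15.4 or more).

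Counts were tested with edgeR 4.0.16 in R 4.3.3 (TMM, filterByExpr, glmQLFit, glmQLFTest), with Benjamini-Hochberg adjustment over all genes tested and a threshold of 0.05. The SE is the log2 fold change divided by the square root of F. For isolated fibers the contrast averaged the 3 fiber groups and subtracted whole muscle, on all 12 libraries; each fiber group was also fitted with whole muscle alone, and the 3 fiber groups together in a joint test. The fits were also run on simulated counts, drawn from 1 mean per gene scaled by total reads, with changes added to some genes. Differences between libraries such as receptor background were not simulated, so that run does not show how calls hold under them. Limits for counts of 0 use 3 reads. Alternatives were DESeq2 1.42.0, other scalings, no filter, a replicate block and leaving out libraries.

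The members and lists were chosen with earlier results of these data known. Named genes were the members and, per list, up to 2 called genes with the largest change in each direction and a mean of 1 CPM or more. For members averaging 5 CPM or more, the 2 most correlated genes averaging at least 10 CPM (offset 0.5 CPM) were named, leaving out predicted genes.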

Additional observations from a re-analysis of the deposited data

Results flagged for a closer look

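As counted with TMM factors, Fndc5 and Fgf21 took opposite sides of the whole muscle mean in different fiber groups, with every library of a group on 1 side. Fndc5 averaged 48.0 CPM in pools of 5, all above the whole muscle mean of 31.4 CPM, while single fibers averaged 11.7 CPM and pools of 20 averaged 18.7 CPM, with all of their libraries below it. The joint test of the 3 fiber groups gave an edgeR adjusted p = 0.121, and the difference between any pair of fiber groups was not tested. The crossing of the whole muscle mean was not seen on total reads. There the pooled level was 27.2 RPM in pools of 5, against 47.9 RPM in whole muscle. No fiber library lay above all of whole muscle on that scale. Set against the median of all genes, Fndc5 was 0.59 to 0.86 in pools of 5 over the 5 scalings. It was -1.47 to -1.36 in single fibers and -1.39 to -0.86 in pools of 20. Fgf21 averaged 0.519 CPM in pools of 5 and 0.306 CPM in pools of 20, all above the whole muscle mean of 0.0357 CPM, while the 3 single fibers had 0 reads. Those counts of 0 allow up to 0.195 to 0.267 CPM per library, more than that mean, so single fibers cannot be placed below it. The difference of Fgf21 between groups was not tested, and 5 of the 6 pools were within the background density.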

How the results depend on the processing

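Counts of called genes moved with the settings. For isolated fibers (3370 called), DESeq2 gave 6411, total reads without TMM factors 5317 and scaling to 8 fiber genes 962, and leaving out 1 library gave 1193 to 7271. The share of called genes that were higher was 49.0%, against 65.1% with upper-quartile factors, 71.7% with DESeq2, 12.5% with total reads and 20.0% with fiber genes. For single fibers (4716) the replicate block gave 3132 and fiber genes 7321, and leaving out 1 library 1540 to 7617. For pools of 5 (1307), no filter gave 2535, the replicate block 231, DESeq2 3094, total reads 5681 and fiber genes 134. Without the 5 libraries of high receptor background it was 7422, and leaving out 1 library gave 7 to 7920. For pools of 20 (7446), no filter gave 23388, and leaving out 1 library 6605 to 13512. For differences among fiber groups (162), relative log expression gave 2, upper-quartile 22, no filter 2906, the replicate block 56, DESeq2 5068, total reads 5360 and fiber genes 0 (9033 at an unadjusted p under 0.05), and leaving out 1 library gave 1 to 10193. The cause was not tested. The replicate numbers were not taken to pair the libraries, since 3 of 18 same-number pairs had a correlation over 0.1 (median -0.0617). With that block Mstn (adjusted p = 0.0257) was called in isolated fibers and Vegfa was not (0.0734); Vegfa was not called in pools of 5 or 20 either, and Fndc5 was called in single fibers. Of the members, 5 values changed sign. Gdf15 in isolated fibers was -0.12 without single fiber 1 (-0.12 to 1.84 over the libraries left out) and -0.51 without the 5 libraries, and in pools of 5 it was -1.06 without them. Fndc5 in pools of 5 was -0.59 with total reads, and Il15 in pools of 20 was 0.20 with fiber genes. Relative to the median of all genes in those fits, Fndc5 was 0.61 and Il15 was -1.04. Among 515 member values under alternatives, 408 kept their side of the threshold and any direction, 43 lost a call and 59 gained one. Gdf15, Fgf21 and Fst are limited by few reads. The fiber-gene, total-read and 5-library alternatives were chosen after seeing the data.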
